A study of Mus musculus with 6 samples.

Results

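The genes described here are cardiac ion channel subunits and gap junction proteins: the sodium, calcium, potassium and pacemaker channels of the heart, the connexins, and a few cation channels of the TRPM and Piezo families. They were chosen by name, as 35 symbols grouped by the current they carry, with earlier results of these data known. Of these, 34 had a row of the array table that the platform annotation pairs with exactly 1 symbol, out of 22180 genes with such a row. Kcnk3, a background potassium channel gene, had only 2 rows, both paired with a second gene as well, and is given no value. For Cacnb2, Kcna4 and Kcnj3, which had 2 rows each, the brighter row was used.

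Cardiomyocytes were grown from hearts of 1-day-old C57BL/6 mice and enriched by a pre-plating step in which quickly attaching cells settle out, and their total RNA was read on an Affymetrix array of the type Mouse Gene 2.0 ST. All cultures were kept for 12 h at 2% oxygen, 5% CO2 and 93% nitrogen. Fibroblast growth factor 21 (FGF21), a hormone of the FGF family, was present at 1 µg/ml in 3 samples and absent from 3 controls, and the series asked which genes it regulates in hypoxic heart cells. Both groups were hypoxic, and no normoxic sample was analysed here. The labels call the samples biological replicates without saying whether they came from separate litters or cultures, so the spread between them may be partly technical. Heart muscle genes were bright in all 6 arrays, with 12 of 12 cardiomyocyte markers above the olfactory receptor range defined below. So were 10 of 10 fibroblast markers and 14 of 15 endothelial markers, all but Robo4: the cultures also held RNA of other heart cells. Fewer cells of a type and less RNA per cell cannot be told apart in such bulk samples.

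The heartbeat rests on these genes in sequence. Pacemaker and T-type calcium channels bring a cell to threshold, sodium channels fire the upstroke, L-type calcium channels hold the plateau and trigger contraction, several potassium currents repolarise the cell and set its resting potential, and connexins pass the impulse to the next cell. Most pore subunits work with small auxiliary subunits that change their gating or bring them to the membrane. Cultured neonatal cells lie between the fetal and adult programmes of these channels.

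With FGF21, 25 of the 34 measured genes (73.5%) had lower means than in controls, against 52.2% of all genes, and 9 had higher means. The largest differences were those of Kcne3, a potassium channel regulator, 1.54-fold lower, of the potassium channel pore gene Kcna5, 1.31-fold lower, and of Kcne4, another regulator, 1.24-fold higher. They were followed by Kcnj2, which sets the resting potential, and Gja1, the main connexin of ventricular muscle, both 1.21-fold lower. None passed the test over all genes: limma called 0 of 34 members at an adjusted p under 0.05, and 0 of 22180 genes, a background of 0%. At an adjusted p under 0.1 it gave 0 members and 28 genes, or 0.126% of all. The smallest adjusted p among the members was 0.212, for Kcne4. At an unadjusted p under 0.05 limma gave 8 members, or 23.5% of them, against a background of 11.7% of all genes. Of the 8, 3 were higher with FGF21 (8.82% of the members, against 6.59% of all genes) and 5 were lower (14.7%, against 5.11%). The median difference of the members was -0.06 on the log2 scale (quartiles -0.12 and 0.02), and that of all genes was -0.01. The groups did not overlap for 13 members, or 38.2%, against 17.1% of all genes. All 3 FGF21 arrays lay above the controls for 4 of them (background 8.99%) and below for 9 (background 8.14%). A difference of at least 0.3 in size was found in 3 members, Kcne3, Kcna5 and Kcne4, and in 2.16% of all genes. The list was chosen with earlier results of these data known, which may have shaped these shares. They describe the list, and no test was made of it.

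**Figure D1:**
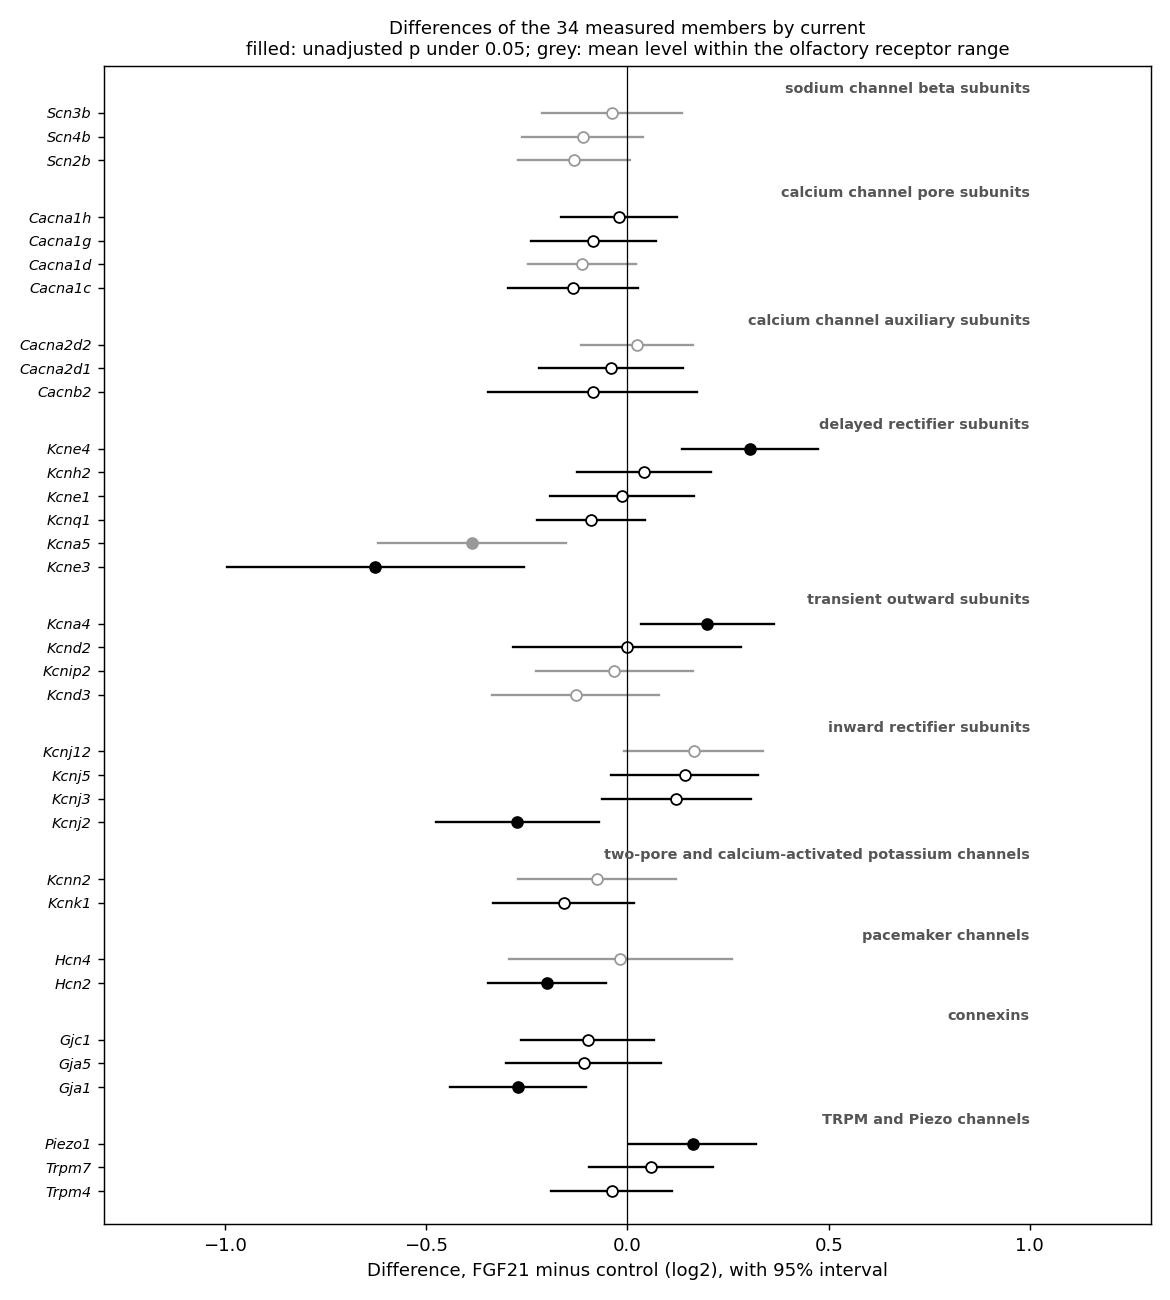
Difference of each of the 34 measured genes with FGF21 minus control on the log2 scale (horizontal axis), with its 95% interval from limma, grouped by current. Filled points are the 8 genes at an unadjusted p under 0.05, and grey marks genes whose mean level lies within the olfactory receptor range; Kcne3 stands furthest left at -0.63 and Kcne4 furthest right at 0.30.

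The table holds no detection calls, so the brightness of genes that heart cells are not known to use served as a guide. Of 1105 olfactory receptor genes, the median level was 4.24 on the log2 scale and the 95th percentile 6.09. Of the members, 23 had means above that 95th percentile and 11 did not. The 11 are all 3 sodium channel beta subunits (Scn2b, Scn3b, Scn4b), Cacna1d, Cacna2d2, Kcna5, Kcnd3, Kcnip2, Kcnj12, Kcnn2 and Hcn4. A difference in these dim genes is compressed by the array, and whether they were above background was not tested. Among the 23 brighter members 7 reached an unadjusted p under 0.05 with limma, against 14.9% of all genes above the same level: 3 were higher (background 11.1%) and 4 lower (background 3.81%). For 9 of the 23 the groups did not overlap (background 20.8%). Of the 23, 16 were lower with FGF21 and their median difference was -0.04, while the median of all 11616 genes at that brightness was 0.03.

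**Figure D2:**
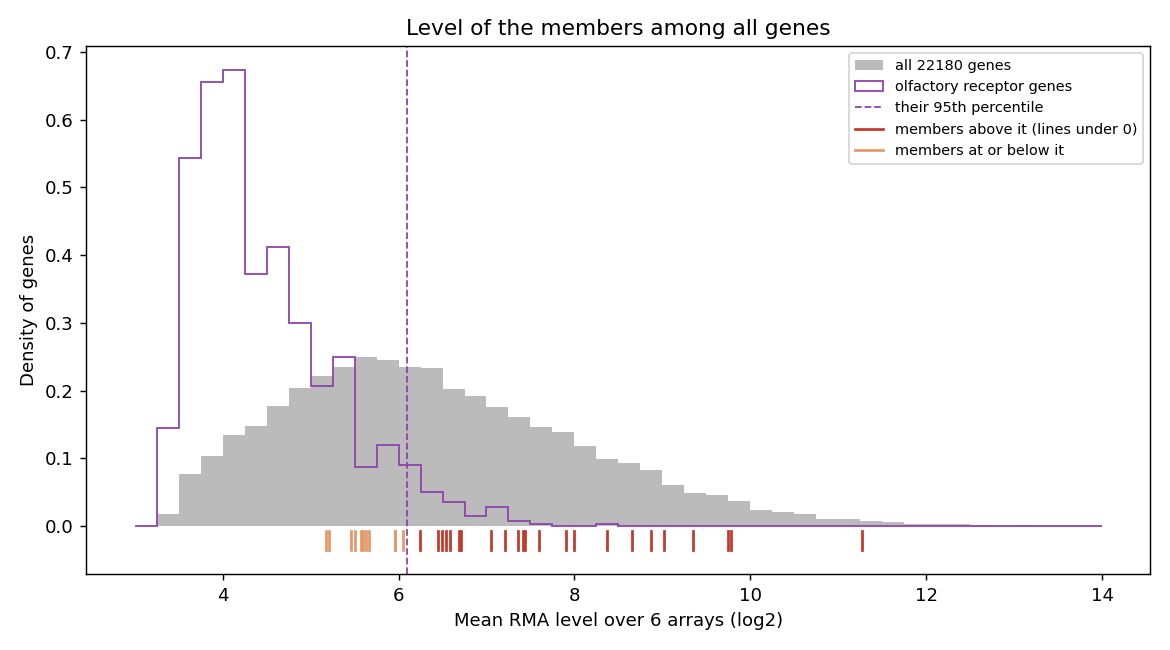
Distribution of mean levels over the 6 arrays (log2, horizontal axis; density of genes, vertical axis) for all 22180 genes in grey and for 1105 olfactory receptor genes as an outline, and a dashed line at 6.09, the 95th percentile of the olfactory receptor genes. Short lines under 0 mark the 34 members: 23 lie above that percentile and 11 at or below it.

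The KCNE proteins are small single-span partners of potassium channel pores, best known for shaping the slow delayed rectifier carried by Kcnq1. Kcne3 (probe set 17480641), whose product holds the Kcnq1 channel open in epithelia, stood at 6.81, 7.49 and 7.54 with FGF21, against 7.87, 8.01 and 7.85 in controls. All FGF21 arrays lay below all controls, and FGF21 replicate 1 lay far below the other FGF21 arrays. The means were 7.28 ± 0.408 with FGF21 and 7.91 ± 0.0878 in controls (SD, n = 3 each), a log2 difference of -0.63 ± 0.16 (SE) and a fold of 1.54 lower (95% interval 1.20 to 1.99), with a limma adjusted p of 0.227. Without FGF21 replicate 1 the difference was -0.39.

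Kcne4 (17214711), whose product inhibits Kcnq1 channels, ran the other way. It stood at 7.72, 7.52 and 7.52 with FGF21 and at 7.24, 7.24 and 7.36 in controls, with no overlap. The difference was 0.30 ± 0.08 (SE), or 1.24-fold (95% interval 1.10 to 1.39), with a limma adjusted p of 0.212. Kcne1, which forms the slow delayed rectifier of the heart with Kcnq1, differed by only -0.01, with a 95% interval of -0.19 to 0.17. Kcnq1 itself was at 7.37 ± 0.0383 with FGF21 and 7.46 ± 0.0191 in controls, a difference of -0.09 (interval -0.22 to 0.04). The FGF21 arrays were all below the controls for Kcnq1, but the gap was small. Kcnh2, the pore of the rapid delayed rectifier, differed by 0.04, with overlapping groups.

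Kcna5 (17471151) encodes the pore of the ultrarapid delayed rectifier. Its levels were 5.64, 5.48 and 5.29 with FGF21, against 5.75, 5.79 and 6.04 in controls. The groups did not overlap, and the log2 difference was -0.39 ± 0.10 (SE), 1.31-fold lower (95% interval 1.11 to 1.54), with a limma adjusted p of 0.240. All of these levels lie below the olfactory 95th percentile.

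**Figure D3:**
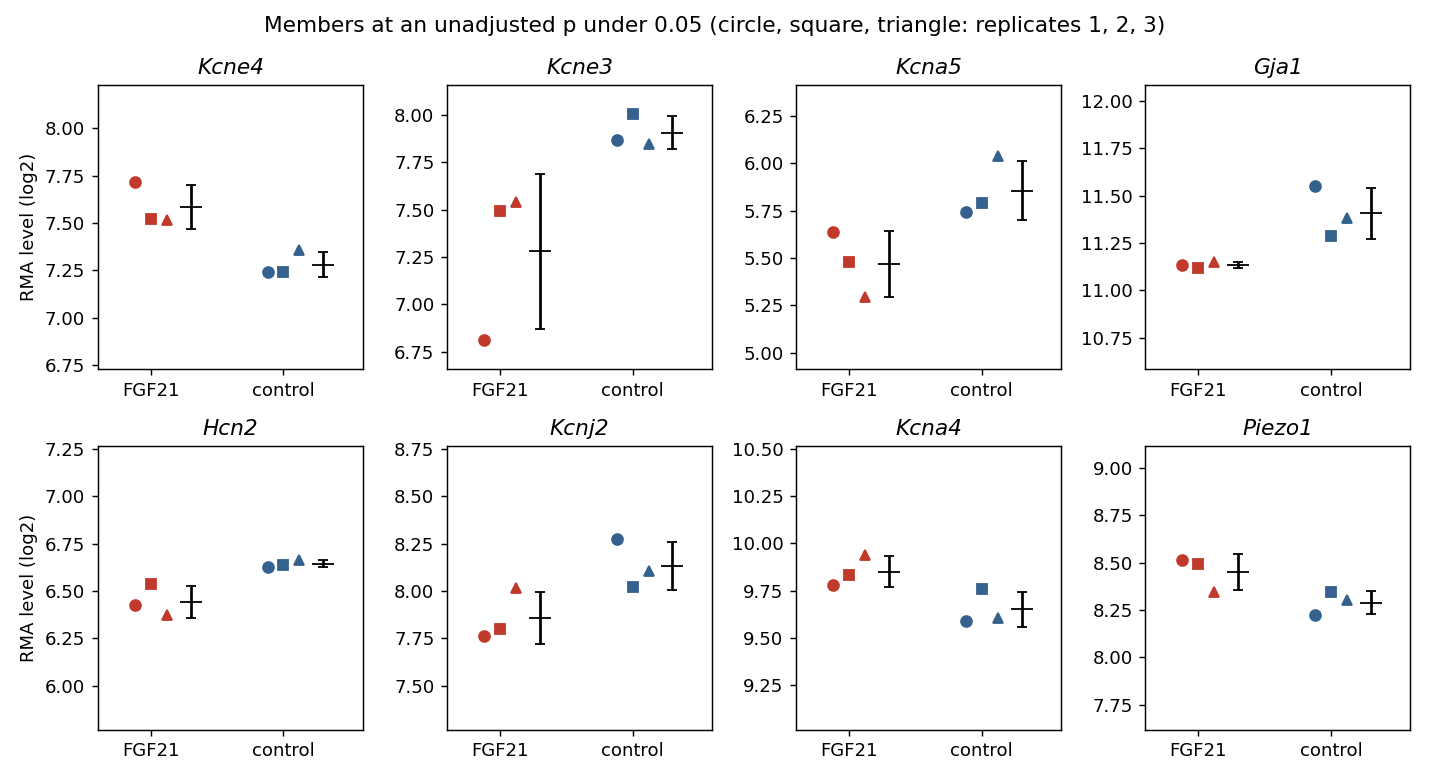
RMA levels (log2, vertical axis; every panel spans the same range of 1.5) in the 3 FGF21 arrays (left) and the 3 controls (right) for the 8 members at an unadjusted p under 0.05; circles, squares and triangles are replicates 1 to 3, and bars give the mean and SD. None of the 8 genes has overlapping groups, and Kcne3 has its lowest value, 6.81, in FGF21 replicate 1.

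Connexins form the gap junctions between heart cells. Gja1 (17233347), the connexin of working ventricular muscle, also made by fibroblasts and other cells, stood at 11.13, 11.12 and 11.15 with FGF21. In controls it stood at 11.55, 11.29 and 11.38. The FGF21 arrays lay close together and below every control. The means were 11.13 ± 0.0141 with FGF21 and 11.41 ± 0.133 in controls (SD), a difference of -0.27 ± 0.08 (SE) and 1.21-fold lower (95% interval 1.07 to 1.36), with a limma adjusted p of 0.250. Without control replicate 1, the highest array, the difference was -0.20. Gja5, the connexin of atrial and conduction myocytes and of arterial endothelium, differed by -0.11 (interval -0.30 to 0.08), and Gjc1, a connexin of nodal cells and the early heart, by -0.10 (interval -0.26 to 0.07). Both had lower means with FGF21 and overlapping groups. The difference of Gja5 was -0.03 without FGF21 replicate 2, and that of Gjc1 was -0.05 without control replicate 3. Of 19 measured genes of the intercalated disc and its junction partners, 8 were higher and 11 lower. All but Gjc3, a further connexin gene, were above the olfactory range. At an unadjusted p under 0.05 limma gave 1 (5.26%, against 11.7% of all genes). It was Ctnna3, an alpha catenin of heart muscle, at -0.23, with an adjusted p of 0.404.

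To show the sequence context of the members at the extreme of the list, the 250 bases before the annotated start site are printed for Kcne4, Kcna5 and Gja1, from RefSeq on GRCm38.p6, 5′ to 3′ on the strand of the gene. With Kcne3 these have the smallest p of the list. Both RefSeq windows of Kcne3 lie inside its own annotated gene span and are not printed. The windows are chr1:78816661-78816910 on the plus strand for Kcne4, chr6:126535556-126535805 on the minus strand for Kcna5 and chr10:56377050-56377299 on the plus strand for Gja1. The Kcne4 window also lies within the span of the long noncoding RNA gene Gm29536. Capitals mark matches on either strand to the letters TGANTCA of AP-1, the factor downstream of growth factor and ERK signalling, ACGTG, the core of the hypoxia response element, and TCACNCCAC, a sterol regulatory element.
Kcne4: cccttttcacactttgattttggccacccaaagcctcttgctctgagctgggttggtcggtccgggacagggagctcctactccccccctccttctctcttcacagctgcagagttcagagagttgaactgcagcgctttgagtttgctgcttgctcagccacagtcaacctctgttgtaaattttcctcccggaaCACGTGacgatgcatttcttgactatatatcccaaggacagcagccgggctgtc
Kcna5: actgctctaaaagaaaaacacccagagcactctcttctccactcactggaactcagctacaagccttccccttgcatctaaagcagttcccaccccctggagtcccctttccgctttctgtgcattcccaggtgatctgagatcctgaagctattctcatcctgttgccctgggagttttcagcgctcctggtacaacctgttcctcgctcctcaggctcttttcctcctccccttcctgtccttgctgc
Gja1: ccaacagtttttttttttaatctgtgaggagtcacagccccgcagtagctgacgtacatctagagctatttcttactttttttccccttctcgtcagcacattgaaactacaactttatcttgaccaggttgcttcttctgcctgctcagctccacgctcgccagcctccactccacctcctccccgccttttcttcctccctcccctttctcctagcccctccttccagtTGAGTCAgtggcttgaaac
The Gja1 window holds the AP-1 letters TGAGTCA, 19 bases before the start site. The Kcne4 window holds the hypoxia core within the letters CACGTG, from 54 bases before the start site. These letters read the same on both strands, so the core matches each strand at the same place. The Kcna5 window holds none of the 3 motifs. Over all 32851 RefSeq promoter windows of this length, 6.75% hold the AP-1 letters, 16.6% the hypoxia core and 1.05% the sterol element. The 26 members with a window had 31 windows between them. Of these 31 windows, 2 held the AP-1 letters (Gja1 and Kcne3), 5 the hypoxia core (Cacna1c, Kcne3, Kcne4, Kcnj2 and Trpm7) and 1 the sterol element (Hcn2). A match of letters is a description of the sequence and says nothing of whether a factor binds there.

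The inward rectifiers did not all differ in the same direction. Kcnj2 (17257937), a pore gene of the current that holds the resting potential of ventricular cells, stood at 7.76, 7.80 and 8.02 with FGF21 and at 8.27, 8.02 and 8.11 in controls. The groups touch without overlapping: FGF21 replicate 3 lay just under control replicate 2. The difference was -0.27 ± 0.09 (SE), 1.21-fold lower (95% interval 1.05 to 1.39), with a limma adjusted p of 0.311. Kcnj12 (17250549), another pore gene of the same current, had 5.62, 5.79 and 5.55 with FGF21 and 5.55, 5.49 and 5.43 in controls. The groups were barely apart. The difference of 0.16 ± 0.08 (SE) was in the other direction, at levels within the olfactory range, with a limma adjusted p of 0.453, and it was 0.0965 without FGF21 replicate 2. Kcnj3 and Kcnj5, the pair that forms the acetylcholine-gated channel of atrial and nodal cells, were higher by 0.12 (interval -0.06 to 0.31) and 0.14 (interval -0.04 to 0.33), with overlapping groups. Without control replicate 2 the difference was 0.06 for each of the pair. The second, dimmer row of Kcnj3 differed by -0.02.

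The transient outward current makes the early notch of the action potential. Kcna4 (17374053), the pore of its slow component, stood at 9.78, 9.83 and 9.94 with FGF21 and at 9.59, 9.76 and 9.60 in controls. The groups did not overlap, and the difference was 0.20 ± 0.07 (SE), 1.15-fold (95% interval 1.02 to 1.29), with a limma adjusted p of 0.354. The dimmer row of Kcna4 differed by 0.11. The fast component is carried by Kcnd2 and Kcnd3 with the calcium-binding subunit Kcnip2. Kcnd2 had equal means of 6.58 in both groups, with an interval of -0.28 to 0.28 for the difference. Kcnd3 differed by -0.13 and Kcnip2 by -0.03, both dim and with overlapping groups, and Kcnd3 by -0.04 without FGF21 replicate 2.

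Of the remaining potassium channels, Kcnk1 (17506917), a background channel of the tandem pore family, stood at 6.26, 6.53 and 6.44 with FGF21 and at 6.61, 6.57 and 6.53 in controls. FGF21 replicate 2 reached the lowest control, so the groups overlapped slightly. The difference was -0.16 ± 0.08 (SE), with a limma adjusted p of 0.469, and it was -0.08 without FGF21 replicate 1. Kcnn2, a calcium-activated channel of small conductance known from atrial cells, differed by -0.08 with overlapping groups.

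The pacemaker channels open on hyperpolarisation and start the beat of nodal cells. Hcn2 (17234936) stood at 6.42, 6.53 and 6.37 with FGF21 and at 6.63, 6.64 and 6.66 in controls. The controls lay within a narrow band above all FGF21 arrays. The difference was -0.20 ± 0.07 (SE), 1.15-fold lower (95% interval 1.04 to 1.27), with a limma adjusted p of 0.311. Hcn4, the main isoform of the sinus node, was dim, at 5.17 ± 0.240 with FGF21 and 5.19 ± 0.177 in controls, and its difference of -0.02 had an interval of -0.30 to 0.26.

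All 4 calcium channel pore genes had lower means with FGF21, none past the threshold. Cacna1c, the L-type pore that triggers contraction, was at 9.28 ± 0.0232 with FGF21 and 9.42 ± 0.115 in controls, a difference of -0.13 (interval -0.30 to 0.03). Its groups did not overlap, but without control replicate 1 the difference was -0.07. Cacna1d (17304353), the L-type pore known from nodal cells, had 5.52, 5.57 and 5.54 with FGF21 and 5.62, 5.67 and 5.68 in controls. The groups did not overlap, the difference was -0.11 ± 0.06 (SE), with a limma adjusted p of 0.502, and the levels were within the olfactory range. The T-type pores Cacna1g and Cacna1h differed by -0.09 and -0.02, with overlapping groups.

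The auxiliary subunits of calcium channels carry the pore to the membrane. Cacnb2 (17367163) stood at 8.80, 8.80 and 8.89 with FGF21 and at 9.21, 8.84 and 8.69 in controls. Control replicate 1 was the highest and control replicate 3 the lowest of all 6 arrays, so the groups overlapped. The difference was -0.09 ± 0.12 (SE), with a limma adjusted p of 0.810, and it was 0.06 without control replicate 1. Cacna2d1 and Cacna2d2, which help to traffic the pore, differed by -0.04 and 0.02.

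The sodium channel beta subunits adjust the gating of the pore that fires the upstroke. All 3 were dim and had lower means with FGF21. All genes were also cut into bins of 4436 by brightness. In the bin that holds these 3 genes the median difference was -0.05, and in the brightest bin it was 0.05. The part of this general shift in the lower means of the beta subunits was not tested. Scn2b (17516731) stood at 5.48, 5.41 and 5.43 with FGF21 and at 5.63, 5.54 and 5.55 in controls. The groups did not overlap, and the difference was -0.13 ± 0.06 (SE), with a limma adjusted p of 0.450. Scn4b differed by -0.11 (interval -0.26 to 0.04) and Scn3b by -0.04, with overlapping groups.

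Of the stretch and cation channels, Piezo1 (17513713), a mechanically gated channel known from endothelium and other cells, stood at 8.51, 8.50 and 8.34 with FGF21 and at 8.22, 8.34 and 8.30 in controls. FGF21 replicate 3 lay just above control replicate 2, and the difference was 0.16 ± 0.07 (SE), 1.12-fold (95% interval 1.00 to 1.25), with a limma adjusted p of 0.419. With quantile normalization applied again it was 0.09. Trpm4, a calcium-activated cation channel, differed by -0.04, and Trpm7, a channel fused to a kinase that carries magnesium, by 0.06. The groups overlapped for both.

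Arrays differed from each other beyond the treatment. Control replicate 1 held the highest value of 13 of the 34 members, or of 10 of the 23 brighter ones, while 19.6% of all genes and 17.6% of the brighter genes had their highest value there. Among the 13 are Cacna1c, Cacnb2, Cacna2d1, Kcnd2, Kcnj2, Gja1 and Gja5. In the same array the mean of 12 cardiomyocyte markers was 10.76, while FGF21 arrays had 10.60 to 10.64 and the remaining controls 10.61 and 10.62. The mean of the intercalated disc genes was 9.13 there, against 8.94 to 8.96 with FGF21 and 8.88 and 8.90 in the other controls. Endothelial markers and smooth muscle and pericyte markers also had their highest means there, at 7.54 and 8.12. The mean of the 34 members was 7.08, 7.09 and 7.13 with FGF21 and 7.20, 7.14 and 7.16 in controls. Without control replicate 1 the median difference of the members was -0.05. In that fit 1 higher and 4 lower members reached an unadjusted p under 0.05 with limma, against 5.28% of all genes higher and 4.71% lower. Leaving the array out also leaves fewer controls, and its own part in the differences was not tested.

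**Figure D4:**
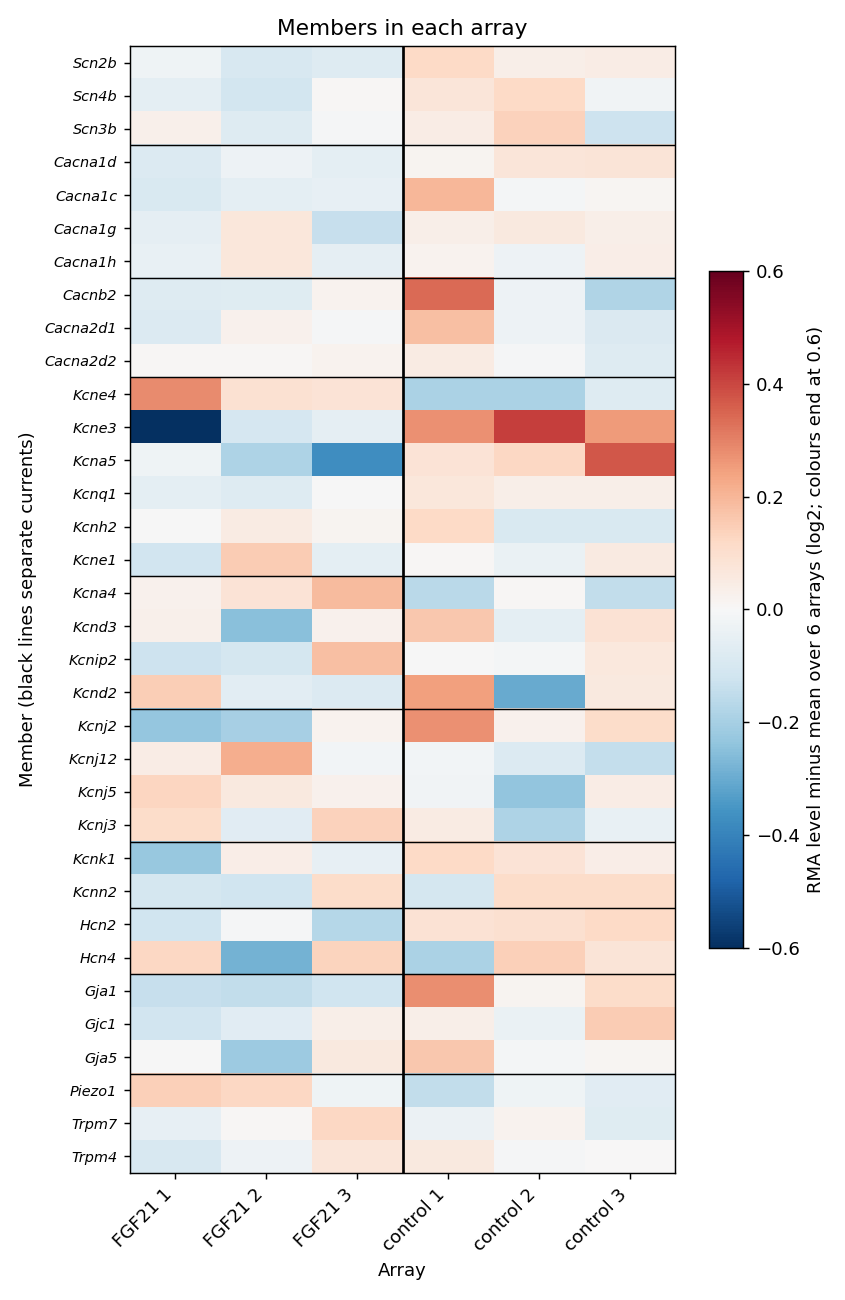
Level of each of the 34 members in each array minus its mean over the 6 arrays (log2, colour), with FGF21 arrays on the left and controls on the right; black lines separate the currents. Control replicate 1 is the highest array for 13 members, and the darkest cell, Kcne3 in FGF21 replicate 1, lies beyond the end of the colour scale.

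Some markers of other heart cells differed between the groups, with 0 of any marker list past limma's adjusted p under 0.05. The marker lists, too, were chosen with earlier results of these data known. Of 15 endothelial markers, 13 were lower with FGF21 (86.7%, against 52.2% of all genes), with a median difference of -0.22 over the 15. Of the 13, 8 reached an unadjusted p under 0.05 with limma (53.3% of the list, against 5.11% of all genes). The marker Ptprb was higher by 0.17 at that p. Their mean level was 7.13 to 7.30 in FGF21 arrays and 7.38 to 7.54 in controls, lowest in FGF21 replicate 1, the array in which Kcne3 was lowest, and highest in control replicate 1. Of 10 smooth muscle and pericyte markers, 6 were lower and 4 higher, with a median difference of -0.02. At that p 3 were lower (background 5.11% of all genes) and 1 higher (background 6.59%). Mean levels were 7.83 to 7.94 with FGF21 and 7.95 to 8.12 in controls, and all markers but Higd1b were above the olfactory range. The 3 of smallest p in this list were Kcnj8, Abcc9 and Rgs5. Rgs5, a pericyte marker, was at 7.92 in FGF21 replicate 1 and at 8.53 and 8.60 in the other FGF21 arrays, against a mean of 8.84 in controls. Kcnj8 and Abcc9 encode subunits of ATP-sensitive potassium channels and were listed here among the pericyte markers. Which cells their RNA came from was not tested. They had differences of -0.65 and -0.45 on the log2 scale, with limma adjusted p of 0.0685 and 0.251. Gja5, Kcnj2, Kcne3 and Piezo1 can be made by vascular cells as well. The part of vascular cells in their differences, or in those of any other member, Gja1, Kcna5 and Kcne4 included, was not tested. Mean levels of 10 fibroblast markers overlapped, at 10.27 to 10.34 with FGF21 and 10.28 to 10.35 in controls. So did those of 10 leukocyte markers, of which Cd52 and Cd14 were within the olfactory range, at 7.44 to 7.59 with FGF21 and 7.47 to 7.51 in controls. Markers of atrial and conduction cells had a median difference of 0.08 over 12 genes, and those of ventricular cells 0.00 over 6. Markers of neurons and Schwann cells had a median difference of -0.14 over 7 measured genes of 10, with means of 5.79 to 5.89 with FGF21 and 5.77 to 5.92 in controls, and 3 of the 7 were above the olfactory range.

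**Figure D5:**
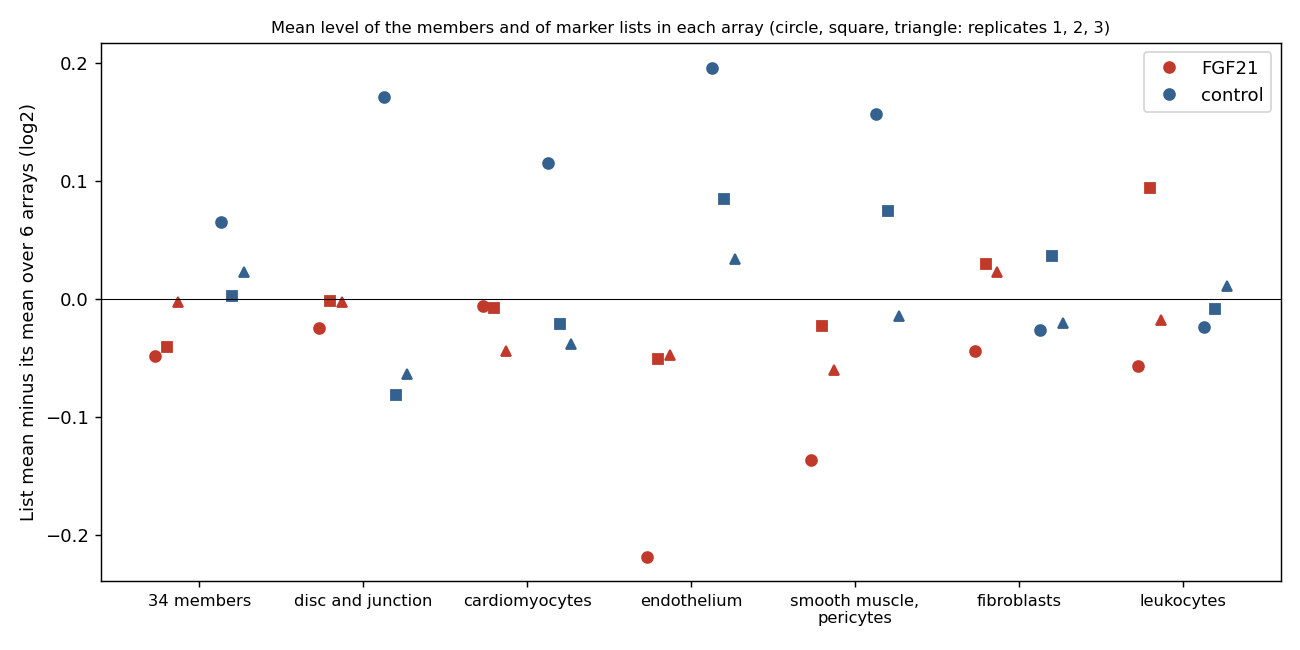
Mean level of the 34 members and of 6 gene lists in each array, each minus its mean over the 6 arrays (log2, vertical axis); red are FGF21 arrays, blue controls, and circles, squares and triangles replicates 1 to 3. Endothelial markers lie below their mean in all 3 FGF21 arrays and above it in all 3 controls. Control replicate 1 is highest for the members, the disc genes and the markers of cardiomyocytes, of endothelium and of smooth muscle and pericytes.

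Other channel genes were set beside the members. Of 67 further channel subunits, 58 had a row. Of these, 37 were lower with FGF21 (63.8%, against 52.2% of all genes), and the median difference was -0.03. Limma gave 5 of the 58 (8.62%, against 11.7% of all genes) at an unadjusted p under 0.05, 1 higher and 4 lower. It gave 0 at an adjusted p under 0.05. The smallest p were those of Kcnmb4, an accessory subunit of calcium-activated potassium channels, at -0.24, of Piezo2, a mechanically gated channel, at 0.25, and of Tmem38a, a cation channel of the sarcoplasmic reticulum, at -0.20, with limma adjusted p of 0.250, 0.320 and 0.335. Kcnmb4 was within the olfactory range. Of 26 measured genes of auxiliary and scaffold proteins of channels, 15 were higher and 11 lower, with a median of 0.02. Limma gave 0 of them at an unadjusted p under 0.05.

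The precision of the comparison is set by 3 arrays a group. Standard errors of the members' differences lay between 0.06 and 0.16, and for 19 of the 34 the whole 95% interval lay within 0.3 of 0 on the log2 scale. The other 15, among them Cacnb2, Kcnd3 and Kcnk1, could differ by more than that. Missing the threshold therefore does not show equal levels.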

How the data were processed

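The values deposited by the authors are on the log2 scale. They come from RMA (robust multi-array average) in affy under R 3.2.2, as the submitters' processing notes list. RMA subtracts background, gives all arrays a common distribution and combines the probes of a set, which shrinks the differences of dim genes. No chip definition or genome build is stated. The table had 41345 rows and 6 array columns, and each column was matched to a sample by its name. None of the array pairs was identical (0 pairs), and arrays correlated at 0.993 to 0.997. Groups came from the sample titles.

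Rows were named through the platform annotation: 23521 had 1 symbol, 1814 several, and 16010 were not in it. Of several rows of a gene, the brightest on average was kept. All 22180 genes were fitted with limma 3.58.1 under R 4.3.3 (FGF21 minus control, no covariate, default eBayes prior, two-sided), with Benjamini-Hochberg adjustment over all genes and a threshold of 0.05. Tested on simulated data of this comparison with 22180 genes, the fit did as follows. Of 100 genes changed by 0.5 on the log2 scale 66% were recovered, of 100 changed by 1 96%, with 3 false calls. In the measured arrays 0 of 22180 genes passed the threshold, and Kcnj8, at -0.65, had a limma adjusted p of 0.0685. The recovery shares therefore cannot be read as the power of the measured comparison, which was not tested.

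The members and lists were chosen with earlier results of these data known. Values in each array are given for the 12 members of smallest p, those differing by at least 0.3, and the brightest member of a current with none. At most 3 genes of another list were named by smallest p. Exceptions named after their values were seen are Ptprb, Gjc3 and the dim markers Robo4, Higd1b, Cd52 and Cd14. Promoter windows came from RefSeq, GRCm38.p6. Alternatives were a replicate block, leaving out each array, repeated quantile normalization, median centring, 2 brightness filters, averaging all rows, a trend and robust prior, and a threshold of 0.1.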

Additional observations from a re-analysis of the deposited data

How the results depend on the processing

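No member passed limma's adjusted p under 0.05 in any of the 13 alternative fits, nor at 0.1 in the reported one, with smallest adjusted p of 0.114 to 0.470 among the fits. Members at an unadjusted p under 0.05 numbered 1 to 3 higher and 4 to 6 lower with an array left out, the 1 being without control replicate 1. In that fit 5.28% of all genes were higher at that p and 4.71% lower. Without FGF21 replicate 2, 2 members were higher and 6 lower, against 4.24% and 3.47% of all genes. Repeated quantile normalization gave 3 and 7, against 4.91% and 4.65% of all genes, and median centring 4 and 5, against 8.4% and 3.54%. The median difference ran from -0.10 without FGF21 replicate 3 to -0.05 without FGF21 replicate 2, and was -0.04 after median centring. In 24 of the 34 members the sign held in each alternative run. The 10 that changed sign had differences of at most 0.09 in size. With an array left out they ran from -0.0588 to 0.00165 for Cacna1h, -0.0939 to 0.0381 for Cacna2d1, -0.00782 to 0.0541 for Cacna2d2, -0.20 to 0.0621 for Cacnb2, -0.12 to 0.12 for Hcn4, -0.15 to 0.12 for Kcnd2, -0.0932 to 0.0413 for Kcne1, -0.13 to 0.022 for Kcnip2, -0.11 to 0.0205 for Scn3b. With quantile normalization applied again values of the other sign were 0.00481 for Scn3b, -0.0211 for Kcnh2, 0.00325 for Kcnd2, 0.0102 for Kcnip2, 0.0291 for Hcn4. After median centring they were 0.0066 for Kcne1, 0.0192 for Kcnd2, 0.00239 for Hcn4. The cause was not tested. The filters on dim genes left 23 members. Kcne3, Kcne4 and Gja1 kept an unadjusted p under 0.05 with limma in all 13 alternatives, and Kcna5 in the 11 that fitted it. The other members at that p in the reported fit did not always keep it. Of the 13, Hcn2 kept it in 12, Kcnj2 in 11, Kcna4 in 10 and Piezo1 in 7. In the 6 fits with an array left out, Hcn2 kept it in 5, Kcnj2 in 4, Kcna4 in 3 and Piezo1 in 2. Arrays sharing a replicate number had deviations from their group means that correlated at 0.103, 0.158 and 0.00653. Arrays of different numbers correlated at -0.16 to 0.0416. The reported fit did not pair the arrays by number, and these values do not settle whether they are paired. In 4 of 6 arrays the highest correlation was with the array of the same number. With the replicate block, 2 higher and 5 lower members reached an unadjusted p under 0.05 with limma, against 7.34% and 5.75% of all genes. In that fit 0 members passed the adjusted threshold, and the median stayed at -0.06.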
